A study of Mus musculus with 42 samples.

Results

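The step from RST day 3 to RST day 7 was described in joint soft tissue of mice after knee arthroplasty, an operation that replaces joint surfaces with an implant. Its members were all genes expressed in the joint libraries. These were the 16149 genes, of 36604 in the table, that passed a filter on low counts. Each group held 4 libraries from C57BL/6 wild type mice, labelled RST day 3 and RST day 7. The code RST is not spelled out in the labels and is kept as it stands, and so is LST, the code of a further group sampled on day 35. No age, sex, implant material or animal number is given for these libraries, and both groups carry the RST label, so nothing in the comparison separates the operation from time after it. Since nothing states that the 4 libraries of a day came from separate animals, the p-values speak of how far these samples vary, part of which may be technical.

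Tissue repair after injury is usually described in overlapping phases. Neutrophils and monocytes enter first, and macrophages clear debris and signal to the tissue. Fibroblasts, endothelial cells and progenitors then multiply and lay down a provisional matrix rich in fibronectin, tenascins and collagen, which is later remodelled by proteases. In the joint, progenitors near bone and tendon can also form cartilage, and injured muscle rebuilds fibres from satellite cells, its resident stem cells.

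On day 7 many genes of connective tissue matrix, cartilage, tendon, bone resorption and Wnt signalling were higher than on day 3. Lower on day 7 were many monocyte and macrophage genes, interferon-stimulated genes, acute phase genes, muscle atrophy genes and genes of ribosome assembly. Col2a1, the main collagen of cartilage, rose by 5.30 ± 0.85 (SE) on the log2 scale, and Clu, a secreted chaperone, fell by 2.80 ± 0.17. Mature muscle genes had overlapping summed levels, from 94340 to 127300 CPM (counts scaled to a common library size) on day 3 and from 76450 to 126100 CPM on day 7.

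Of the 16149 genes, 6648 (41.2%) passed an adjusted p of 0.05 in edgeR's quasi-likelihood test. Of these, 3013 (18.7%) were higher and 3635 (22.5%) were lower on day 7. With scaling by library totals alone the split was 3454 higher and 2337 lower. Large changes were mostly rises: 1237 genes (7.66%) were called and over 2-fold higher against 392 (2.43%) over 2-fold lower, and beyond 4-fold there were 257 rises and 50 falls. CPM ranges of the 4 and 4 libraries did not overlap for 5881 genes (36.4%), 2890 (17.9%) of them higher and 2991 (18.5%) lower on day 7. The median log2 difference over all tested genes was -0.05. Gene lists below are read against these shares and this median, and differences of single genes are log2 fold changes with their standard error (SE).

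**Figure D1:**
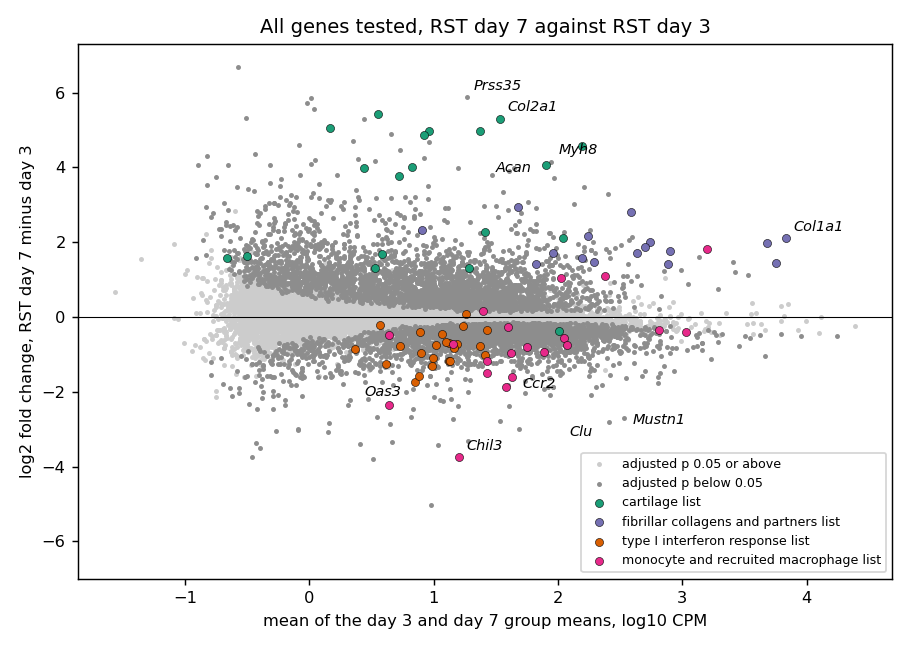
Log2 difference of RST day 7 against RST day 3 (vertical axis, log2 fold change) by mean level (horizontal axis, log10 CPM) for the 16149 tested genes, with genes past the threshold in dark grey, the others in light grey and 4 gene lists in colour. The points far from 0 lie mainly above it, with 257 called rises and 50 called falls beyond 4-fold.

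Total counts ran from 17842090 to 23217719 on day 3 and from 20317132 to 25337254 on day 7. The first principal component of the 8 libraries held 61% of their variance. Mitochondrially encoded genes took 5.46% to 6.49% of counts on day 3 and 3.84% to 5.69% on day 7. Fibroblast, synovial and muscle genes were present in every library, and of 12 epidermal genes 9, among them Krt5 and Krt14, were under the filter.

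Genes of the collagen matrix rose together. All 16 tested fibrillar collagens and their partners passed as higher, with a median log2 difference of 1.82, and the list's mean level went from 7.20 ± 0.12 to 9.12 ± 0.14 log2 CPM (SD, n = 4). Col1a1, which encodes the main chain of type I collagen (chr11:94936224-94953042 of mm10, plus strand), stood at 2331, 2728, 2544 and 2793 CPM in the day 3 libraries and 9444, 10819, 12766 and 11656 CPM in those of day 7. Its lowest day 7 library was above its highest day 3 library, and the difference was 2.10 ± 0.34 (SE, adjusted p = 4.59e-05). In this bulk tissue more cells of a type and more RNA per cell cannot be told apart, here and in every result below.

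Col3a1, the chain of the collagen of early scar, rose by 1.44 ± 0.30 (SE, adjusted p = 0.00065). Col12a1, a fibril-associated collagen of dense connective tissue, was at 78.4, 118, 104 and 88.6 CPM in the day 3 libraries and 675, 606, 698 and 725 CPM in those of day 7, a rise of 2.80 ± 0.38 (SE, adjusted p = 7.89e-06). Col8a2, a short-chain network collagen, showed the largest log2 difference of the list, 2.93, and Col15a1, a basement membrane collagen, the smallest, 1.41.

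The matricellular proteins and proteoglycans, which sit between fibrils and cells, rose in 20 of 21 tested members, with a median log2 difference of 1.60. Tnn, the tenascin also called tenascin-W, was measured at 28.6, 31.1, 34.5 and 25.8 CPM in the day 3 libraries and 240.2, 225, 237 and 264 CPM in those of day 7, a rise of 3.01 ± 0.40 (SE, adjusted p = 4.91e-06). Sparc, a collagen-binding matricellular protein, rose by 1.46 ± 0.24 (SE, adjusted p = 5.88e-05). Fmod and Ogn, small proteoglycans that bind collagen fibrils, rose by 2.33 and 1.80 on the log2 scale. Fn1, fibronectin, listed with recruited macrophages, rose by 1.82 ± 0.42 (SE, adjusted p = 0.00152). Ccn5 was the member that did not pass, at 0.07.

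Enzymes and chaperones that make and crosslink collagen rose in 16 of 24 members, with a median of 0.82, and 1 member fell. P3h3, of the collagen prolyl hydroxylase family, rose, with 27.4, 26.2, 25 and 27.4 CPM in the day 3 libraries and 75, 84.3, 89.8 and 90 CPM in those of day 7. Its day 3 libraries lay within a narrow band well under every day 7 library, and the difference was 1.68 ± 0.26 (SE, adjusted p = 3.59e-05). Loxl2 and Plod2, which crosslink collagen and prepare it for crosslinking, rose by 1.39 and 1.14 on the log2 scale, whereas Lox itself gave 0.36 ± 0.33 (SE, adjusted p = 0.395). Tmem38b, a cation channel of the endoplasmic reticulum, was the member that fell, with 172, 155, 138 and 170.1 CPM in the day 3 libraries and 63.6, 51.4, 53.2 and 58 CPM in those of day 7, a change of -1.49 ± 0.13 (SE, adjusted p = 2.68e-08).

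Of 22 genes for protein folding and export in the endoplasmic reticulum, 6 rose and 6 fell, against 18.7% and 22.5% of all genes. Their median of -0.07 was close to the -0.05 of all genes. The risers were Creb3l1 (1.19) and Creb3l2 (0.87), transcription factors of secretory cells, Sec24d (0.98), a coat protein of export vesicles, Sec61a1, of the channel through which proteins enter the reticulum, and Kdelr2 and Kdelr3, which retrieve proteins to it. Among the fallers were the stress-responsive Sdf2l1 (-0.89) and Herpud1 (-0.33) and the chaperone Canx (-0.51).

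Contractile genes of smooth muscle and myofibroblasts, the contractile fibroblasts of wounds, rose in 9 of 12 members and fell in 2 (1 without day 3 library 3 or day 7 library 3), with a median of 0.99. Acta2, smooth muscle actin, stood at 73.1, 77, 67.3 and 61.1 CPM in the day 3 libraries and 184, 159.6, 177 and 185 CPM in those of day 7, with no overlap between days, and rose by 1.34 ± 0.17 (SE, adjusted p = 3.19e-06). Actg2 and Cnn1, an actin and a calponin of smooth muscle, rose by 2.64 and 2.36 on the log2 scale. Lmod1 and Tpm2, an actin nucleator and a tropomyosin, fell by 0.85 and 0.56. Tagln also rose, but 67.9% of its exon bases are shared with other genes and its value is uncertain.

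The cartilage list showed the highest median of the 43 lists, 3.98 on the log2 scale. Of its 19 tested members, 17 rose and none fell, and its level went from 0.83 ± 0.16 to 3.97 ± 0.05 log2 CPM (SD, n = 4). Col2a1 (chr15:97975602-98004695 of mm10, minus strand) was measured at 1.3, 3.29, 1.07 and 0.943 CPM in the day 3 libraries and 84.7, 59.9, 65.9 and 57.5 CPM in those of day 7. The 4 day 3 libraries held little of it and the 4 day 7 libraries similar higher amounts, a difference of 5.30 ± 0.85 (SE, adjusted p = 4.2e-05). Acan, the large proteoglycan that holds water in cartilage, was at 9.75, 10.3, 8.67 and 7.51 CPM in the day 3 libraries and 130, 150, 137 and 194 CPM in those of day 7, a rise of 4.07 ± 0.38 (SE, adjusted p = 6.23e-08).

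Cnmd, chondromodulin, an inhibitor of vessel growth made by cartilage, stood at 0.0464, 0.277, 0.0427 and 0.226 CPM in the day 3 libraries and 9.11, 5.53, 5.92 and 7.46 CPM in those of day 7. Its day 3 values correspond to few reads, so that the log2 difference of 5.43 ± 0.69 (SE, adjusted p = 3e-06) rests on a low starting level. Col11a1 and Col9a2, collagens of the cartilage fibril, rose by 4.56 and 4.96 on the log2 scale, and Matn4, a matrix adaptor, by 4.97. The transcription factor Sox9, which sets up cartilage fate, rose by 1.30 ± 0.22 (SE, adjusted p = 7.78e-05), with 14, 11.5, 10.04 and 9.24 CPM in the day 3 libraries and 21.7, 23.5, 33.6 and 31.2 CPM in those of day 7. Its partner Sox5 rose by 1.69, and Sox6 gave -0.39 ± 0.16 (SE, adjusted p = 0.0549), while 1 member was called lower without day 3 library 1 or without day 7 library 1 or 2. Col10a1, the collagen of hypertrophic cartilage, gave 1.58 ± 1.26 (SE, adjusted p = 0.331).

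**Figure D2:**
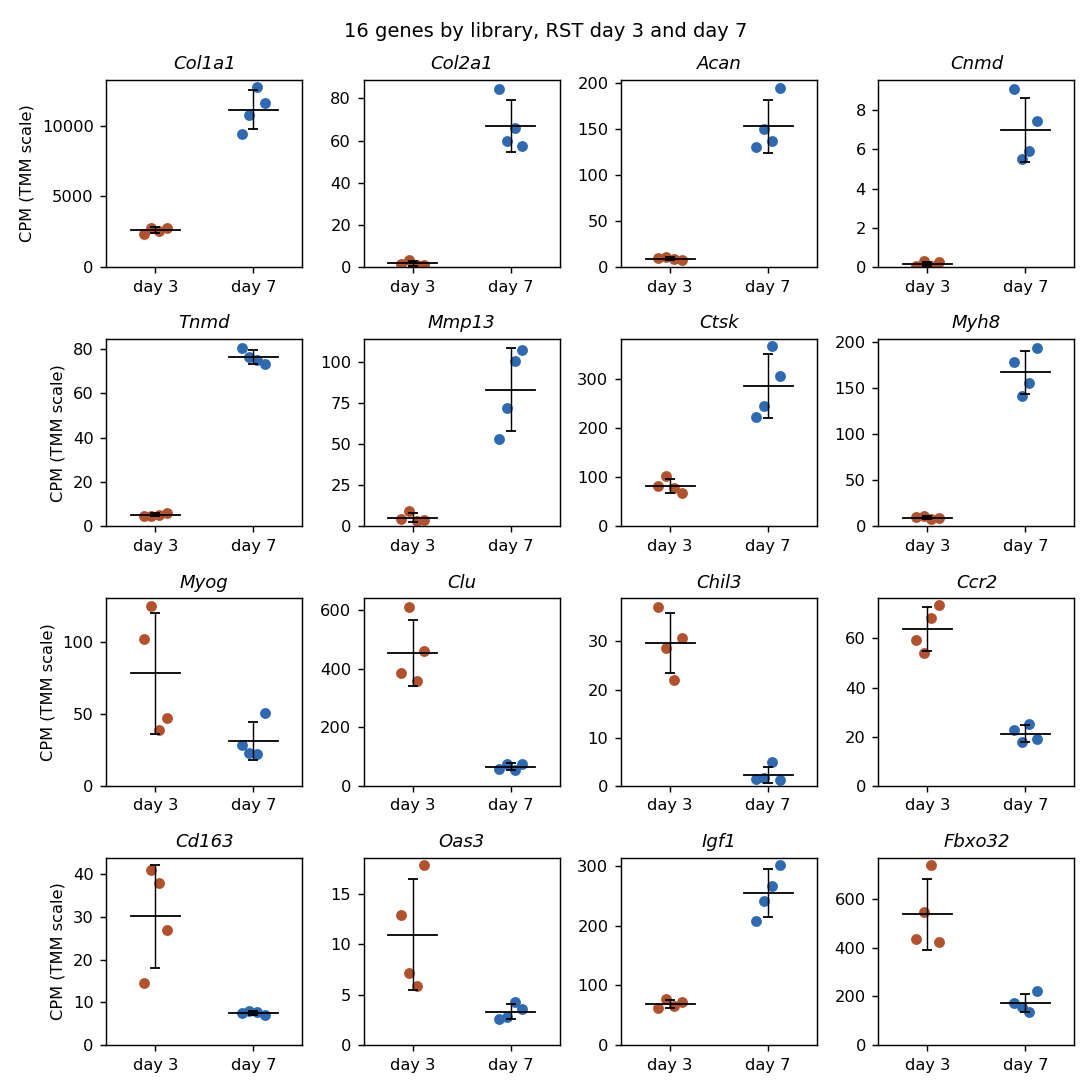
Level in CPM (linear axis from 0) of 16 genes in each of the 4 RST day 3 and 4 RST day 7 libraries, with a line at the group mean and a bar of 1 SD. Cartilage, tendon, bone resorption and matrix genes lie higher in every day 7 library, for example Col1a1 at 9444 to 12766 CPM on day 7 against 2331 to 2793 CPM on day 3, while Clu, Chil3, Ccr2, Cd163 and Fbxo32 lie lower.

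Tendon and ligament genes rose in 8 of 10 members, with a median of 1.97 and none lower. Tnmd, tenomodulin, a membrane protein of tendon cells (chrX:133850980-133865577 of mm10, plus strand), was measured at 4.69, 4.67, 5.21 and 5.96 CPM in the day 3 libraries and 80.6, 76.3, 75.1 and 73.1 CPM in those of day 7. The libraries of each day lay close together, and the rise was 3.89 ± 0.24 (SE, adjusted p = 2.05e-10). Mkx, a tendon transcription factor, rose by 1.98 ± 0.22 (SE, adjusted p = 5.99e-07). Scx, the transcription factor of tendon progenitors, was not called (-0.59 ± 0.25 SE, adjusted p = 0.0563). Its values, 89.5, 112, 43.7 and 38.5 CPM in the day 3 libraries and 40.2, 47.2, 37.4 and 63.5 CPM in those of day 7, overlapped between days. Day 3 libraries 1 and 2 were higher than libraries 3 and 4, a split that Myog showed as well, and without day 3 library 3 or 4 or day 7 library 4 a fall was called in the list.

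Bone-forming genes rose in 6 of 15 tested members and none fell, with a median of 1.14. Sp7, a transcription factor required for osteoblasts, was at 0.279, 0.519, 0.128 and 0.113 CPM in the day 3 libraries and 1.45, 1.08, 1.83 and 1.73 CPM in those of day 7, a rise of 2.49 ± 0.65 (SE, adjusted p = 0.00396) at a low level. Panx3, a channel of cartilage and bone cells, rose by 2.96 on the log2 scale. Bglap2, an osteocalcin gene, had 2 counts over the day 3 libraries and 33 over those of day 7, a ratio of 14.4 (95% counting interval 3.68 to 124), and its near-identical copy Bglap makes the value uncertain. Ibsp, bone sialoprotein, gave 1.39 ± 0.75 (SE, adjusted p = 0.14) and Runx2 0.72 ± 0.30 (SE, adjusted p = 0.0557), so neither passed.

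Osteoclast genes, those of the cells that resorb bone, rose in 9 of 17 members and fell in 1 (2 without day 3 library 2 or 3), with a median of 0.84. Ctsk, the protease cathepsin K, stood at 81.4, 103, 78.1 and 67.8 CPM in the day 3 libraries and 223, 245, 368 and 308 CPM in those of day 7, higher in every day 7 library, with a difference of 1.79 ± 0.33 (SE, adjusted p = 0.000204). Oscar, a receptor that helps osteoclasts mature, rose by 3.08 ± 0.40 (SE, adjusted p = 4e-06). The ligand Tnfsf11, called RANKL, which drives osteoclast formation, was at 3.11, 3.36, 1.88 and 2.11 CPM in the day 3 libraries and 7.7, 7.03, 10.6 and 14.6 CPM in those of day 7, a rise of 1.93 ± 0.41 (SE, adjusted p = 0.000726). Its receptor Tnfrsf11a, called RANK, moved the other way, with 16.2, 12.7, 13.6 and 15.7 CPM in the day 3 libraries and 5.85, 7.5, 10.5 and 7.78 CPM in those of day 7, a fall of 0.88 ± 0.25 on the log2 scale (adjusted p = 0.00825).

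Matrix proteases and their inhibitors rose in 15 of 22 members and fell in 1, with a median of 1.04. Mmp13, a collagenase of cartilage and bone, was measured at 4.46, 9.45, 3.08 and 3.88 CPM in the day 3 libraries and 53, 72, 101 and 108 CPM in those of day 7, which do not overlap, and rose by 3.98 ± 0.50 (SE, adjusted p = 2.93e-06). Mmp14, a membrane protease, and its substrate Mmp2, a gelatinase, rose by 1.93 ± 0.31 (SE, adjusted p = 4.48e-05) and 2.14 ± 0.30 (SE, adjusted p = 1.06e-05). Mmp8, the collagenase of neutrophils, was the member that fell, by 1.79 on the log2 scale, with no fall called without day 3 library 2 and 2 called without day 3 library 3. The inhibitors Timp2 and Timp3 rose by 1.41 and 0.82, while Timp1 gave 0.46 ± 0.36 (SE, adjusted p = 0.314).

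Synovial lining genes rose in 5 of 10 members and none fell (1 without day 7 library 1), with a median of 0.93, and 3 rose without day 3 library 3 or without day 7 library 3. Cemip, which takes part in breaking down hyaluronan, the large sugar of joint fluid, was at 1.49, 2.67, 1.67 and 1.47 CPM in the day 3 libraries and 13.5, 19.4, 15.4 and 17 CPM in those of day 7, a rise of 3.14 ± 0.40 (SE, adjusted p = 3.57e-06). Has1, which makes hyaluronan, rose by 1.27 ± 0.51 (SE, adjusted p = 0.0493). Prg4, the lubricating protein of the joint surface, stood at 512, 493, 446 and 431 CPM in the day 3 libraries and 867, 1177, 1014 and 845 CPM in those of day 7. Every day 7 library was higher, yet the difference of 1.05 ± 0.49 (SE, adjusted p = 0.0863) did not pass in the test over all joint libraries.

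Wnt pathway genes, which guide bone, cartilage and fibroblast fate, rose in 17 of 20 members, none fell (1 without day 7 library 1), and their median was 0.92. Among the ligands Wnt16 was at 1.07, 2.18, 0.897 and 1.4 CPM in the day 3 libraries and 4.24, 7.25, 9.56 and 7.17 CPM in those of day 7, a rise of 2.33 ± 0.32 (SE, adjusted p = 7.95e-06), and Wnt5a rose by 1.19 on the log2 scale. The secreted antagonist Dkk3 stood at 10.8, 11.1, 15.8 and 10.6 CPM in the day 3 libraries and 87.2, 117, 96.1 and 109 CPM in those of day 7 and rose by 3.08 ± 0.29 (SE, adjusted p = 6.23e-08). The antagonists Sfrp1, Frzb and Wif1 also rose, by 1.37, 1.22 and 0.89. Among the receptors Fzd1 and Fzd2 rose by 1.47 and 1.46, and Axin2, a feedback target of the pathway, rose by 0.64 ± 0.16 (SE, adjusted p = 0.00331).

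In the TGF-beta and BMP pathway, which drives scar matrix and skeletal patterning, 12 of 23 members rose and 2 fell, with a median of 0.44. The largest rise and the largest fall were those of secreted BMP antagonists. Nog, noggin, was measured at 24.4, 19.3, 17.6 and 17.2 CPM in the day 3 libraries and 3.3, 4.48, 3.01 and 5.58 CPM in those of day 7, a fall of 2.26 ± 0.23 (SE, adjusted p = 1.79e-07). Grem1, gremlin, stood at 0.279, 0.173, 0.214 and 0 CPM in the day 3 libraries and 3.06, 2.45, 4.32 and 7.49 CPM in those of day 7, a rise of 4.71 ± 0.82 (SE, adjusted p = 0.000112). The ligands Bmp2, Tgfb2, Tgfb3 and Inhba rose by 0.62, 0.60, 0.53 and 0.95 on the log2 scale, and Tgfb1 gave -0.03. Of the receptors Tgfbr2 rose by 0.74 and Tgfbr1 fell by 0.53.

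Hedgehog pathway genes rose in 7 of 11 tested members and none fell, with a median of 0.80. Smo, the signal transducer, was at 17.3, 18.5, 18.8 and 18.3 CPM in the day 3 libraries and 38.6, 43.1, 45.1 and 42.2 CPM in those of day 7, a rise of 1.21 ± 0.18 (SE, adjusted p = 1.6e-05). The transcription factors Gli1, Gli2 and Gli3 rose by 0.96, 1.30 and 0.87 on the log2 scale. The receptor Ptch1, a target gene as well, gave 0.08 ± 0.12 (SE, adjusted p = 0.627). The ligands Shh and Ihh were under the filter.

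Of 20 mature muscle genes 1 rose and 2 fell, with a median of -0.17. Acta1, the actin of muscle fibres, fell, with 20101, 18431, 22335 and 21924 CPM in the day 3 libraries and 18457, 15468, 12525 and 11962 CPM in those of day 7, a change of -0.50 ± 0.17 (SE, adjusted p = 0.0219). Myh1, a fast myosin, fell by 0.78 on the log2 scale. It stood at 2661, 2567, 6308 and 2832 CPM in the day 3 libraries, with library 3 far above the rest, and at 2451, 1970, 2142 and 1802 CPM in those of day 7. The number of list members lower was 0 without day 3 library 3 or day 7 library 4, 1 without day 3 library 4 or day 7 library 3, and 4 without day 7 library 1. Pvalb, the calcium buffer of fast fibres, rose, with 2267, 1588, 2338 and 2333 CPM in the day 3 libraries and 6320, 5006, 3710 and 3496 CPM in those of day 7, a change of 1.12 ± 0.19 (SE, adjusted p = 0.000108), and 2 members rose without day 7 library 4. Tnnc2 was listed at very low levels, and 74% of its exon bases are shared with Ube2c on the other strand, so its value is uncertain.

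Of 23 muscle regeneration genes 8 rose and 6 fell, against 18.7% and 22.5% of all genes, with a median of -0.04. CPM ranges did not overlap between days for 8 members that were higher and 2 that were lower, against 17.9% and 18.5% of all genes. The share that fell was thus near that of all genes, and the fallers are given as single genes. Cdh15, a cadherin of satellite cells and myoblasts, was at 65.8, 67.2, 58.1 and 55.9 CPM in the day 3 libraries and 18.8, 18.4, 14.6 and 17.9 CPM in those of day 7, a fall of 1.83 ± 0.12 (SE, adjusted p = 4.67e-10). Myog, myogenin, which starts fibre differentiation, stood at 103, 125, 38.6 and 47.3 CPM in the day 3 libraries and 28.4, 22.8, 21.8 and 50.4 CPM in those of day 7, a fall of 1.35 ± 0.34 (SE, adjusted p = 0.00338) with overlap between days. Myod1 and Myf6, related transcription factors, fell by 0.99 and 1.38, whereas Pax7, a marker of satellite cells, gave -0.19 and Myf5 -0.18, both uncalled.

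Genes of newly formed fibres were among the risers. Myh8, the perinatal myosin, was measured at 9.61, 10.9, 7.73 and 9.16 CPM in the day 3 libraries and 178, 142, 155 and 194 CPM in those of day 7, a rise of 4.16 ± 0.32 (SE, adjusted p = 4.74e-09). Myh3, the embryonic myosin, rose by 1.12 ± 0.32 (SE, adjusted p = 0.00856), with 71.9, 58.3, 21.6 and 43.6 CPM in the day 3 libraries and 89.6, 91.9, 79.9 and 163 CPM in those of day 7. Its highest library was day 7 library 4 and its lowest day 3 library 3. Actc1, the cardiac actin made by young fibres, rose by 1.99 on the log2 scale, and Dlk1, a membrane protein of developing muscle and fat, by 4.69 ± 0.38 (SE, adjusted p = 1.08e-08). Igf1, a growth factor for muscle that macrophages also make, is listed with resident macrophages and does not mark new fibres. It stood at 61.7, 77.7, 65.1 and 71.2 CPM in the day 3 libraries and 207, 241, 267 and 302 CPM in those of day 7 and rose by 1.88 ± 0.23 (SE, adjusted p = 2.11e-06).

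Muscle atrophy and stress genes fell in 7 of 14 members and none rose, with a median of -0.59. Fbxo32, called atrogin, a ubiquitin ligase of muscle wasting, was at 438, 549, 741 and 425 CPM in the day 3 libraries and 173, 158, 137 and 221 CPM in those of day 7, a fall of 1.64 ± 0.23 (SE, adjusted p = 1.04e-05). Trim63, its partner ligase, fell by 1.55 ± 0.16 (SE, adjusted p = 2.49e-07). Cryab, a small chaperone, and Mstn, myostatin, the growth inhibitor of muscle, fell by 1.49 and 1.28 on the log2 scale. Mustn1, a small nuclear protein of the musculoskeletal system outside the lists, was measured at 746, 495, 609 and 494 CPM in the day 3 libraries and 71, 90.4, 89.5 and 106 CPM in those of day 7 and fell by 2.71 ± 0.14 (SE, adjusted p = 2.69e-11).

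**Figure D3:**
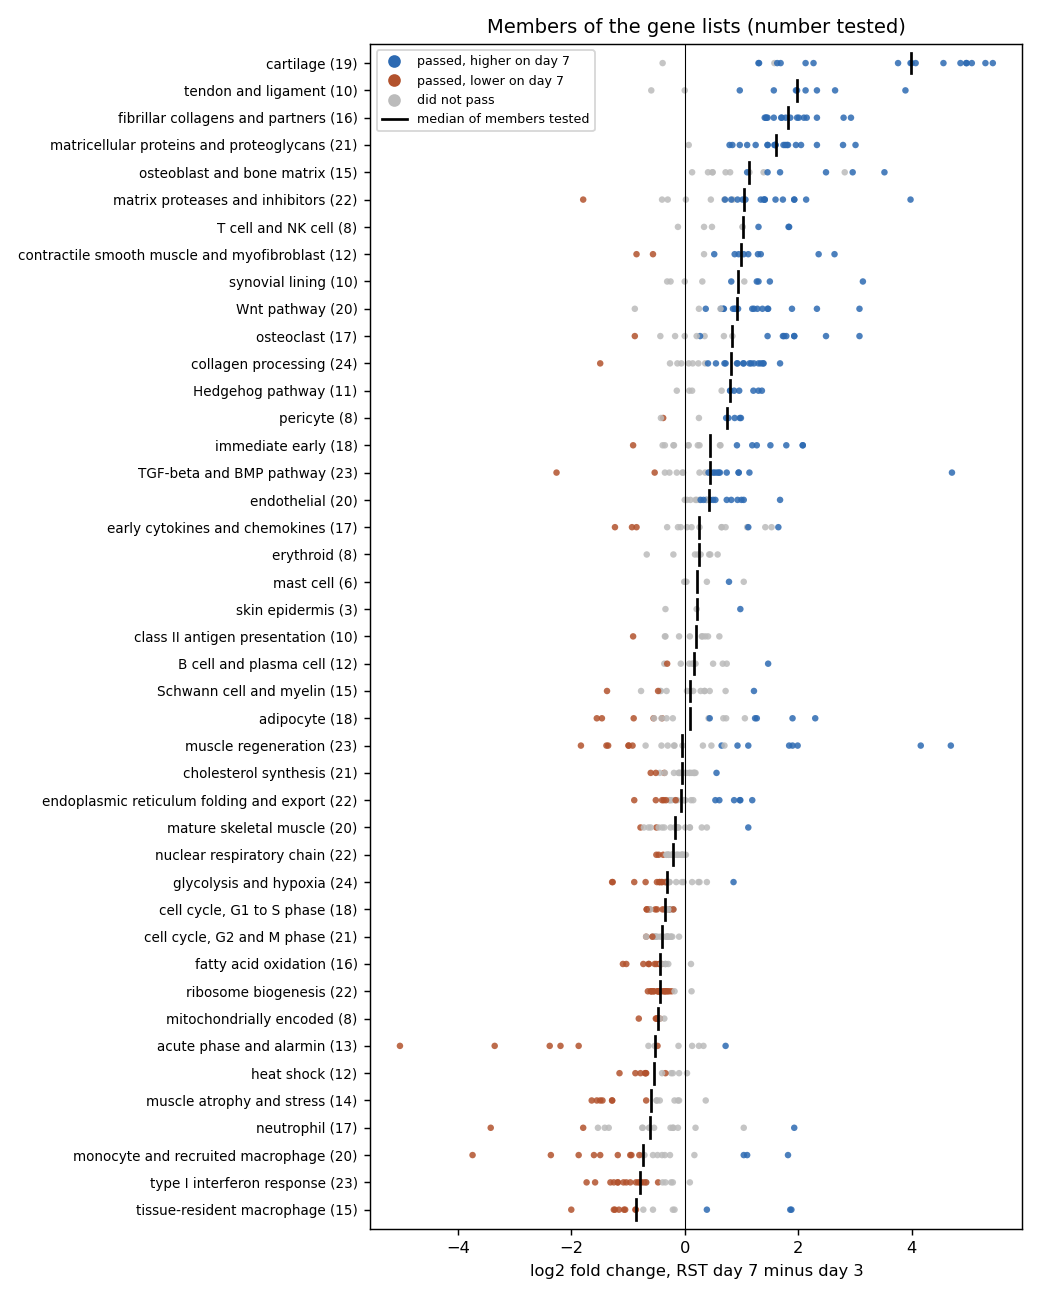
Log2 difference of RST day 7 against RST day 3 for each tested member of the gene lists, 1 row per list, with blue points for members that passed as higher, brown for those that passed as lower, grey for the others and a bar at the list median. The cartilage median of 3.98 is the highest, and the fibrillar collagen row holds blue points only.

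Monocyte and recruited macrophage genes fell in 9 of 20 members and rose in 3, with a median of -0.73. Chil3, a lectin of activated and immature myeloid cells (chr3:106147554-106167564 of mm10, minus strand), stood at 37.1, 28.7, 22 and 30.7 CPM in the day 3 libraries and 1.3, 1.53, 4.81 and 1.12 CPM in those of day 7, a fall of 3.74 ± 0.62 (SE, adjusted p = 6.61e-05). Ccr2, the receptor that brings monocytes into tissue, was at 59.5, 54, 68.5 and 73.5 CPM in the day 3 libraries and 22.6, 17.7, 25.2 and 18.9 CPM in those of day 7, with no overlap, a fall of 1.60 ± 0.24 (SE, adjusted p = 1.95e-05). Arg1, an arginine-degrading enzyme of wound macrophages, and Fcgr1, an antibody receptor, fell by 1.87 and 1.49 on the log2 scale. The risers were Fn1, Thbs1 (1.10) and Vcan (1.04), secreted matrix proteins that fibroblasts make too.

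In the same list Cd68, a lysosomal protein of macrophages, fell by 0.94 ± 0.32 (SE, adjusted p = 0.0222), and Adgre1, a macrophage surface receptor, by 0.80 ± 0.28 (SE, adjusted p = 0.0264). Csf1r, the receptor for the macrophage growth factor, gave -0.56 ± 0.23 (SE, adjusted p = 0.0573), and Lyz2, lysozyme, -0.40 ± 0.26 (SE, adjusted p = 0.219). Day 7 library 3 was the highest of its group for both Cd68 (72.5 CPM) and Adgre1 (56.5 CPM).

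Resident macrophage genes fell in 8 of 15 members and rose in 3, with a median of -0.86. Cd163, a scavenger receptor for haemoglobin, was measured at 14.6, 40.9, 38 and 26.8 CPM in the day 3 libraries and 7.58, 7.98, 7.59 and 6.95 CPM in those of day 7. The day 7 libraries were nearly equal, the day 3 ones were spread, and the fall was 2.0 ± 0.23 (SE, adjusted p = 9.29e-07). Cbr2, Pf4, Cx3cr1 and Stab1, genes of settled tissue macrophages, fell by 1.23, 1.16, 1.07 and 1.05 on the log2 scale. Retnla, a secreted protein of alternatively activated macrophages, rose, with 0.511, 0.761, 1.71 and 0.905 CPM in the day 3 libraries and 5.89, 3.5, 2.23 and 2.63 CPM in those of day 7, a change of 1.86 ± 0.42 (SE, adjusted p = 0.00135). The other risers were Igf1 and Maf (0.39), a transcription factor.

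Of 10 class II antigen presentation genes none rose and 1 fell, the protease Ctss (-0.91). Ctss did not pass without day 3 library 1 or with scaling by library totals. The presenting molecules H2-Ab1 and H2-Eb1 gave log2 differences of 0.30 and 0.36. When the 8 libraries were fitted without the other joint groups, 5 members of the list passed as higher.

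Neutrophil genes were largely uncalled: 2 of 17 fell (1 without day 3 library 2), 1 rose and the median was -0.62. Lcn2, an iron-binding protein of neutrophil granules that stressed tissue also makes, stood at 20.3, 27.5, 24.2 and 7.35 CPM in the day 3 libraries and 1.3, 1.53, 2.72 and 1.8 CPM in those of day 7, a fall of 3.42 ± 0.52 (SE, adjusted p = 2.4e-05). S100a8 and S100a9, the abundant neutrophil calprotectin chains, gave -0.62 ± 0.65 (SE, adjusted p = 0.47) and -0.21 ± 0.68 (SE, adjusted p = 0.83). The riser was Mmp9, a gelatinase that osteoclasts make too (1.93 ± 0.52 SE, adjusted p = 0.00504). The list's level was spread on day 3, from 0.57 to 2.97 log2 CPM, and ran from 1.0 to 2.07 log2 CPM on day 7.

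Of 17 early cytokines and chemokines 2 were higher and 3 lower, with a median of 0.26. Both shares lay under those of all genes, 18.7% higher and 22.5% lower. CPM ranges lay apart for 5 members higher and 2 lower, against 17.9% and 18.5% of all genes. Ccl2, the main attractant of monocytes, was at 44.2, 19.7, 18.2 and 26.1 CPM in the day 3 libraries and 10.6, 11, 11.5 and 13 CPM in those of day 7, a fall of 1.23 ± 0.27 (SE, adjusted p = 0.000937), and the related Ccl7 and Ccl12 fell by 0.93 and 0.85. Ptgs2, the enzyme of prostaglandin synthesis, rose, with 7.47, 10.9, 5.34 and 3.58 CPM in the day 3 libraries and 17.5, 15.4, 23.8 and 29.2 CPM in those of day 7, a change of 1.65 ± 0.45 (SE, adjusted p = 0.00587). Il1b, an early inflammatory interleukin, was measured at 6.36, 10.04, 5.81 and 4.41 CPM in the day 3 libraries and 13.3, 13.9, 23.8 and 20.6 CPM in those of day 7. It was higher in each day 7 library, but its difference of 1.42 ± 0.60 (SE, adjusted p = 0.0615) did not pass in the test over all joint libraries. Without day 3 library 1 or 4, or without day 7 library 1 or 2, 1 member was lower, and 1 was higher without day 7 library 4. In the fit of the 8 libraries alone 7 were higher. By limma-voom 5 were higher, and with a replicate block or without the filter on low counts 4 were. With library totals 1 was lower.

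Acute phase and alarmin genes fell in 6 of 13 members and rose in 1, with a median of -0.53. Serpina3n, a protease inhibitor, stood at 46.3, 92.1, 88.2 and 45.3 CPM in the day 3 libraries and 10.7, 13.4, 15.5 and 12.6 CPM in those of day 7, a fall of 2.38 ± 0.33 (SE, adjusted p = 8.74e-06). Mt1, a metal-binding protein, fell by 1.87 ± 0.30 (SE, adjusted p = 4.45e-05). Orm2, an acute phase plasma protein, was measured at 26.2, 42.4, 4.53 and 1.09 CPM in the day 3 libraries and 0.0393, 0.254, 0.262 and 1.73 CPM in those of day 7, so that the day 3 libraries differed widely, and reads from its copy Orm1 cannot be told apart from its own. Ptx3, a soluble pattern receptor bound in wound matrix, was the member that rose (0.72 ± 0.16 SE, adjusted p = 0.001).

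The interferon-stimulated genes, which cells switch on at a promoter element called the ISRE, fell in 16 of 23 members with none higher, and their median was -0.79. Without day 3 library 4 the count lower was 8, without day 7 library 2 it was 10, and with scaling by library totals it was 9. The list's level on day 3 was spread from 2.93 to 4.21 log2 CPM, against 2.75 to 3.14 on day 7. The ISRE core GAAANNGAA was searched on both strands of the 250 bases before the start in RefSeq promoters (GRCm38.p6). It occurred in 8 of the 16 list genes with a promoter entry (50%) and in 2211 of 27025 genes (8.18%). Among the 10 matched members that fell it occurred in 5, the same share as in the list. The list was made of interferon-stimulated genes, so its excess over all genes does not bear on the step between days. The 3 windows are shown because these genes, 2 antiviral oligoadenylate synthetases and the antiviral radical enzyme Rsad2, fell and hold the core, which is in capitals. They are Oas1a (chr5:120907526-120907775), Oas3 (chr5:120777660-120777909) and Rsad2 (chr12:26456453-26456702), all minus strand and printed 5′ to 3′ toward the start.
Oas1a: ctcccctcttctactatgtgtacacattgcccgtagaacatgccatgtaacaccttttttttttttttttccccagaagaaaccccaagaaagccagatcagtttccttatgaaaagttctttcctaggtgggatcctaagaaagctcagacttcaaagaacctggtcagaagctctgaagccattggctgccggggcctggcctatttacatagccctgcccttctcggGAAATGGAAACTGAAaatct
Oas3: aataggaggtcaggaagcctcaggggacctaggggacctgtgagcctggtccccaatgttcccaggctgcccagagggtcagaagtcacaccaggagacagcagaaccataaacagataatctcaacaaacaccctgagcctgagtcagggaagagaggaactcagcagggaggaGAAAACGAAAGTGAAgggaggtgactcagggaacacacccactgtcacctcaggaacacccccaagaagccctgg
Rsad2: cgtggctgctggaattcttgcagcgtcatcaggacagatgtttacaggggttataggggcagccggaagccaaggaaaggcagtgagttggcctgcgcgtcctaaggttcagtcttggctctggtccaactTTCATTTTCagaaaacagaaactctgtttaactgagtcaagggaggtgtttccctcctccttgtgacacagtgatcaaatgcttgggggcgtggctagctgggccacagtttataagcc
In Oas1a the matches begin 20 and 14 bases before the start and overlap, in Oas3 75 and 69 bases before it and overlap, and in Rsad2 the match begins 119 bases before it on the reverse strand. A match is a string of letters in this window and was not tested as a site.

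Oas1a was measured at 16.3, 11, 8.84 and 18.7 CPM in the day 3 libraries and 4.63, 5.66, 6.22 and 5.62 CPM in those of day 7, a fall of 1.31 ± 0.24 (SE, adjusted p = 0.000162). Oas3 stood at 12.9, 7.13, 5.9 and 17.8 CPM in the day 3 libraries and 2.59, 2.77, 4.25 and 3.57 CPM in those of day 7, a fall of 1.73 ± 0.41 (SE, adjusted p = 0.00204). Rsad2 was at 29.7, 12.4, 10.3 and 23.1 CPM in the day 3 libraries and 7.81, 7.85, 9.29 and 8.29 CPM in those of day 7, a fall of 1.18 ± 0.33 (SE, adjusted p = 0.00654). In all 3 genes day 3 libraries 1 and 4 were the highest, and the day 7 libraries lay below every day 3 library. Over the whole list of 23, ranges lay apart in this way for 7 members, against 18.5% of all genes. Mx1, an antiviral GTPase, was spread wider, at 14.8, 8.1, 3.72 and 19.4 CPM in the day 3 libraries and 4.2, 3.21, 4.16 and 3.86 CPM in those of day 7, so day 3 library 3 lay within the day 7 range. The sensor gene Ddx58 gave 0.09 ± 0.18 (SE, adjusted p = 0.725) and was not called.

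Ribosome assembly genes fell in 20 of 22 members, none rose and the median was -0.44, or -0.33 with library totals, where 13 fell. Heatr1, of the complex that processes ribosomal RNA, was at 27.1, 32.2, 28 and 30.4 CPM in the day 3 libraries and 15.8, 17.1, 19.5 and 22.6 CPM in those of day 7, a fall of 0.65 ± 0.11 (SE, adjusted p = 6.26e-05). Ncl, nucleolin, fell by 0.54 ± 0.07 (SE, adjusted p = 9.93e-06), and the elongation factor Eef2, outside the list, by 0.66 ± 0.10 (SE, adjusted p = 1.41e-05). Log2 differences of the members that fell ran from -0.65 to -0.23.

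Of 18 genes for entry into DNA synthesis 8 fell and none rose, with a median of -0.35, and of 21 mitotic genes 2 fell and none rose, with a median of -0.40. Pcna, the clamp of DNA polymerase, stood at 70.4, 51.1, 42.4 and 46.1 CPM in the day 3 libraries and 33.1, 36.2, 41.6 and 38.6 CPM in those of day 7, a fall of 0.49 ± 0.12 (SE, adjusted p = 0.00191). Rrm2, which makes DNA precursors, fell by 0.67 ± 0.26 (SE, adjusted p = 0.0434), and Aurka, a mitotic kinase, by 0.68 ± 0.14 (SE, adjusted p = 0.000662). Mki67, a marker of dividing cells, gave -0.29 ± 0.33 (SE, adjusted p = 0.506). Day 3 library 1 was the highest for Pcna, Rrm2 and Aurka, and without it 2 members of the DNA synthesis list fell. That count was 5 without day 7 library 2 or 3, 4 without day 7 library 4 and 1 with library totals. The mitotic count was 1 without day 3 library 1 or 2 or any day 7 library, and 10 in the fit of the 8 libraries alone.

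Heat shock genes fell in 7 of 12 members and none rose, with a median of -0.54. Hspb1, a small chaperone, was at 203, 199, 124 and 145 CPM in the day 3 libraries and 68.9, 77.7, 65.4 and 91.2 CPM in those of day 7, a fall of 1.15 ± 0.17 (SE, adjusted p = 1.78e-05). Hsp90ab1, an abundant chaperone outside the list, fell by 1.11 ± 0.10 (SE, adjusted p = 2.55e-08). The strongly inducible Hspa1a and Hspa1b gave -0.24 and -0.21 on the log2 scale, uncalled.

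Genes of glycolysis and fatty acid oxidation were lower in part. Glycolysis and hypoxia genes fell in 11 of 24 members and rose in 1 (2 without day 7 library 4), with a median of -0.31. Without day 3 library 1 or 3 or day 7 library 2 or 3 the number lower was 7. It was also 7 with upper quartile scaling and with library totals, where 2 and 3 members rose. Hk2, the first enzyme of glycolysis in muscle, stood at 357, 405, 439.9 and 378 CPM in the day 3 libraries and 161, 172, 149.7 and 172 CPM in those of day 7, a fall of 1.27 ± 0.13 (SE, adjusted p = 1.32e-07). Fatty acid oxidation genes fell in 10 of 16 members, none rose, and the median was -0.44. The dehydrogenase Acadl fell by 1.09 ± 0.19 (SE, adjusted p = 8.27e-05). Without day 3 library 3 the count lower was 5 and without day 7 library 3 it was 6. Of 22 nuclear respiratory chain genes 3 fell, a share under the 22.5% of all genes, with a median of -0.21. In 0 of them did the CPM ranges of the days lie apart. The count lower was 1 without day 3 library 1 or day 7 library 3, and 7 without day 7 library 1. Of 8 mitochondrially encoded genes 6 fell, with a median of -0.48, and 1 lay lower without overlap. The mitochondrial count lower was 0 without day 3 library 1, 3 without day 3 library 2 and 1 without day 3 library 3 or day 7 library 3 or 4. In the fit of the 8 libraries alone it was 1. The mature muscle list, whose fibres hold much of this machinery, stood at 10.54 to 10.97 log2 CPM on day 3 and 10.32 to 10.83 on day 7, and its part in these counts was not tested.

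Blood vessel genes rose in small steps. Of 20 endothelial genes 13 rose and none fell, with a median of 0.42. Kdr, the main receptor for the vessel growth factor VEGF, was measured at 21.4, 18.6, 19.4 and 21.5 CPM in the day 3 libraries and 41.7, 44.8, 41.9 and 38.2 CPM in those of day 7, close within each day, and rose by 1.04 ± 0.13 (SE, adjusted p = 2.07e-06). Esm1, a marker of sprouting tip cells, rose by 1.68 ± 0.29 (SE, adjusted p = 8.33e-05), while Vwf, stored in settled endothelium, gave 0.00 ± 0.13 (SE, adjusted p = 0.985). Pericyte genes, those of the cells that wrap small vessels, rose in 5 of 8 members and fell in 1, with a median of 0.75. The fall, of Abcc9, was not called with any other scaling tried, limma-voom, a replicate block or the 8 libraries alone. Nor was it called without day 3 library 2, 3 or 4 or day 7 library 1, 3 or 4. Notch3 rose by 0.99 ± 0.10 (SE, adjusted p = 2.17e-07).

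Adipocyte genes rose in 5 of 18 members and fell in 5, with a median of 0.10. Without day 3 library 1, 3 rose and 2 fell, without day 7 library 2, 3 rose, and without day 3 library 3 or day 7 library 1, 3 or 4, 3 fell. The risers Scd1 and Fasn, enzymes of fatty acid synthesis, rose by 2.30 ± 0.37 (SE, adjusted p = 4.92e-05) and 1.27 ± 0.35 (SE, adjusted p = 0.00651). Plin4, a lipid droplet protein, and Lpl, which releases fatty acids from plasma lipid, fell by 1.55 and 0.90 on the log2 scale. Adipoq, adiponectin, a defining fat cell gene, gave 0.68 ± 0.43 (SE, adjusted p = 0.21).

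Among single genes the largest rise by the naming rule was that of Prss35, a secreted protein of the serine protease family, at 0.511, 0.796, 0.256 and 0.83 CPM in the day 3 libraries and 28.9, 34.1, 43.3 and 38.5 CPM in those of day 7, a change of 5.87 ± 0.57 (SE, adjusted p = 1.09e-07). Aqp5, a water channel, rose by 4.90 ± 0.58 (SE, adjusted p = 1.29e-06). Gzmd, Gzmc and Gzme, granzymes of near-identical sequence on chromosome 14, were among the largest rises and are uncertain one by one. Gzmd had 3 counts over the day 3 libraries and 229 over those of day 7, a ratio of 66.5 (95% counting interval 22.5 to 325). Slc5a7, the choline transporter of nerve endings, had 3 and 210 counts, a ratio of 61 (20.6 to 298).

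The largest falls by the rule included Chil3, Lcn2, Gal and Card14. Card14, a signalling scaffold best known in skin, was measured at 32.5, 35.9, 30.8 and 37.5 CPM in the day 3 libraries and 1.92, 3.59, 3.6 and 4.58 CPM in those of day 7, a fall of 3.31 ± 0.27 (SE, adjusted p = 7.98e-09). Clu (chr14:65968483-65981547 of mm10, plus strand) stood at 384, 613, 359 and 460.3 CPM in the day 3 libraries and 57.1, 75.4, 54.9 and 73.7 CPM in those of day 7, with adjusted p = 1.75e-10, and no library of one day reached the range of the other. Aldh1a2, which makes retinoic acid, fell by 2.73 ± 0.18 (SE, adjusted p = 3.42e-10). Gal, the neuropeptide galanin, and Chrna9, an acetylcholine receptor subunit, fell by 3.39 and 2.87 on the log2 scale.

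Later RST days and LST day 35 place the step. The cartilage list stood at 3.61 ± 0.91 log2 CPM on day 14, 2.21 ± 0.69 on day 21, 1.12 ± 0.10 on day 35 and 0.24 ± 0.22 in LST day 35 (SD, n = 4). Its day 7 mean of 3.97 was the highest of the 6 groups, and the range on day 14, 2.27 to 4.22, overlapped that of day 7. Fibrillar collagens stood at 8.49 ± 0.47, 7.53 ± 0.77 and 6.33 ± 0.26 on days 14, 21 and 35, below the day 7 mean of 9.12, with overlap between the day 7 range (8.96 to 9.29) and that of day 14 (7.99 to 9.12), and at 5.12 ± 0.08 in LST day 35.

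Tendon genes were level between day 7 (6.25 ± 0.15) and day 14 (6.31 ± 0.29), with overlapping ranges. Monocyte and recruited macrophage genes went from 6.04 ± 0.23 on day 3 and 5.37 ± 0.28 on day 7 to 4.52 ± 0.55, 3.85 ± 0.77 and 2.73 ± 0.30 on the later RST days, with overlap between day 7 and day 14. Muscle atrophy genes stood at 6.61 ± 0.25 on day 3 and 5.82 ± 0.24 on day 7, and from day 14 to day 35 their means lay between 5.89 and 6.06. Muscle regeneration genes had their highest mean on day 7, 4.64 ± 0.30, against 4.21 ± 0.38 on day 3, within overlapping ranges, and 3.27 ± 0.27 on day 14. The later steps were not tested here.

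**Figure D4:**
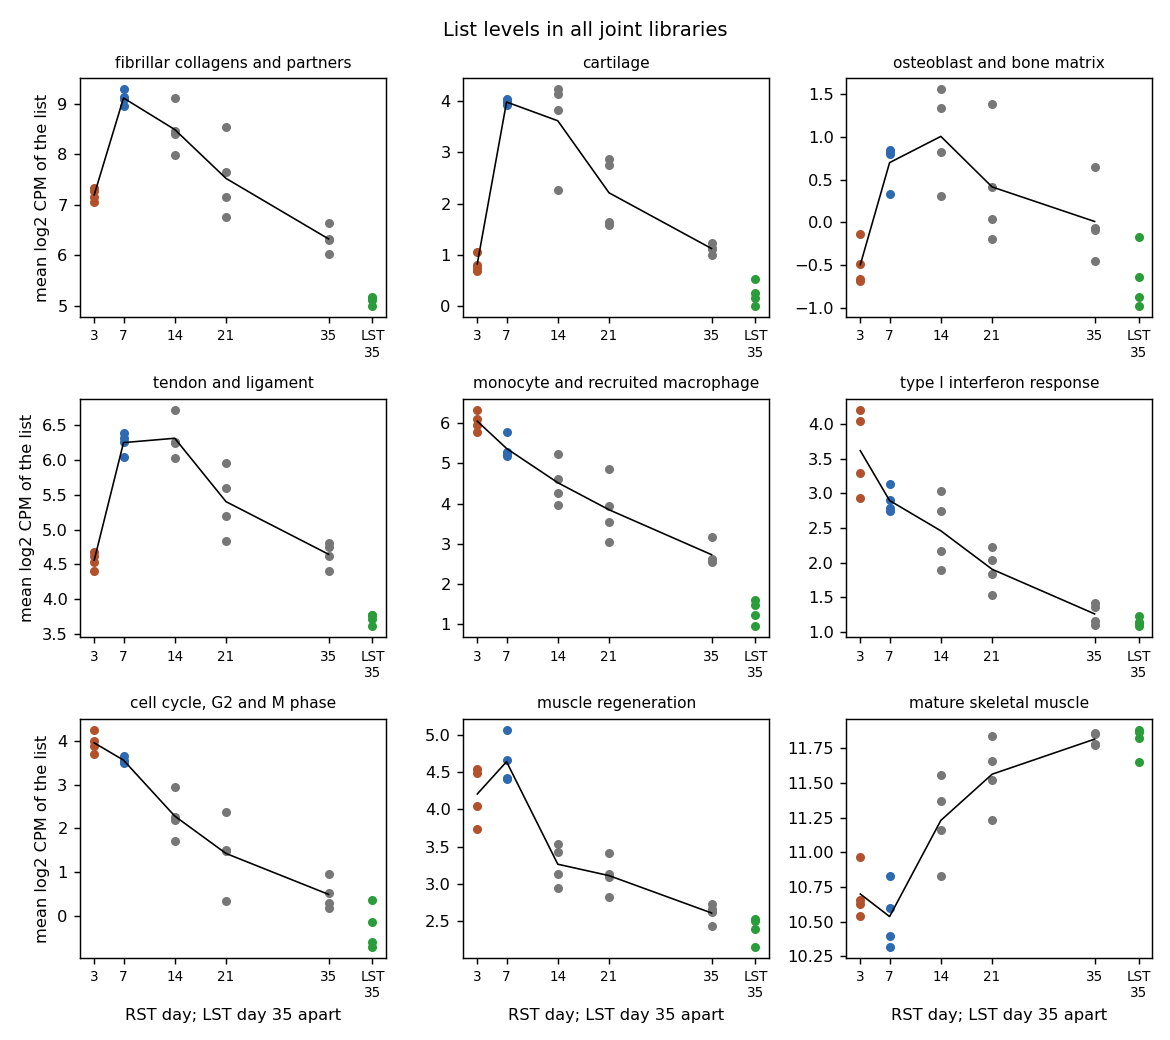
Mean log2 CPM of 9 gene lists in each library (points) on RST days 3, 7, 14, 21 and 35 and, set apart, LST day 35, with a line through the RST means. The cartilage points lie at 3.91 to 4.03 log2 CPM on day 7 against 0.69 to 1.06 on day 3, and the monocyte and recruited macrophage points are highest on day 3, at 5.78 to 6.33.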

How the data were processed

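Gene counts of 24 joint soft tissue libraries were used, in 6 groups of 4, of which RST day 3 and RST day 7 were compared. Per the labels' protocols, tissue was flash frozen, RNA was taken with Trizol, and a NEBNext Ultra II kit was used for the libraries. According to the submitters' processing notes, fastp and STAR were used on build mm10. The authors deposited raw counts, whole numbers per gene. The counting program, its strand setting and its handling of multiply mapped reads are not given in the sources used, so antisense genes, near-identical copies (granzymes, Orm1 and Orm2, Bglap and Bglap2, Hba-a1 and Hba-a2) and overlapping genes are uncertain. Of 751 list and named genes, 10 shared over 50% of their exon bases with other genes (Cpt1b, Etfb, Folr2, Gins2, Igf2, Itgam, Mt2, Mzb1, Tagln and Tnnc2). Names and positions came from GENCODE M21, which matched 36591 genes.

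Counts were fitted in R 4.3.3 with edgeR 4.0.16: filterByExpr with minimum count 10, TMM scaling, and a quasi-likelihood F test of day 7 against day 3 in 1 fit over all 24 libraries. Benjamini-Hochberg adjusted p-values cover all 16149 genes, and a gene passed below 0.05. Standard errors were taken as the size of the log2 fold change divided by the root of the F statistic. CPM are on the TMM scale. List levels are means of log2 CPM with a prior count of 2. Totals of 17842090 to 25337254 counts per library set the precision. Libraries of a day differed by more than counting error (chi-square per degree of freedom at least 13.9). The test was tried on simulated counts. Ratios of genes with 3 or fewer counts in a group carry exact 95% intervals for counting error only.

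The 43 gene lists hold 729 genes, 685 of them tested, 42 under the filter and 2 not matched in the table. The comparison, lists and naming rule were chosen with earlier results of these data known. The rule took the 15 largest rises and falls with non-overlapping ranges and a mean count of 50 or more on the higher day, the 10 largest gains and losses in CPM, up to 4 members per list of smallest adjusted p, and up to 3 members per list with a searched promoter motif. Predicted genes, pseudogenes and single receptor segments were left out. Genes named beyond it were chosen after their values were seen. Of the other motifs searched, TTTGAA occurred in 7 of 17 matched mitotic genes (41.2%, against 18.3% of all genes) and TCACNCCAC in 1 of 14 cholesterol synthesis genes (7.14%, against 1.22%). Other scalings, filters, tools (DESeq2 1.42.0, limma 3.58.1 voom) and each library left out were tried. Some list members are not reported here by name. Lymph node counts were not used here.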

Additional observations from a re-analysis of the deposited data

Results flagged for a closer look

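Among 86 groups of 4 library levels examined (43 lists on 2 days), 4 held a library that stood apart from the other 3 of its day, where chance flags about 1 in 20 groups. The class II antigen presentation list stood at 4.60 log2 CPM in RST day 7 replicate 3, against 4.12 to 4.17 in the others of that day. This library also had the highest Cd68 and Adgre1 of its group. The osteoblast and bone matrix list stood at 0.33 log2 CPM in RST day 7 replicate 1, against 0.80 to 0.85. The ribosome biogenesis list stood at 5.07 log2 CPM in RST day 7 replicate 4, against 4.79 to 4.83, nearer to day 3. The cholesterol synthesis list stood at 3.57 log2 CPM in RST day 7 replicate 1, against 3.42 to 3.44. The origin of these levels was not tested.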

How the results depend on the processing

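The main count was 6648 genes, 3013 higher and 3635 lower. With scaling by library totals alone 2337 genes were lower. That scaling moved the median log2 difference of all genes from -0.05 to 0.05, so small falls depend on it. A fit of the 8 libraries of both days alone gave 5893 genes, DESeq2 6765 and limma-voom 6960. Leaving out each of the 8 libraries in turn gave 5655 to 6516 genes, 2597 to 2847 higher and 3058 to 3669 lower. A replicate block gave 6702 genes over all libraries. In the 8 libraries alone, a setting chosen after seeing the data, the replicate block gave 4362 genes, 1856 of them lower. Deviations of libraries with the same number correlated at -0.252 to -0.0798 over 4 pairs, and those of other pairs at -0.241 to 0.265. With 4 libraries a day this cannot tell whether a number marks a pair or a shared batch. No gene called in both the main test and an alternative changed direction. Of the 187 genes named by the rule, none reversed, 160 kept the call under each of the 17 listed settings that tested them and 27 lost it under at least 1. Some list counts also moved under other settings. Those beside the lists are mainly the ones that moved on leaving out a library, and the cause was not tested. Genes at under about 1 CPM on day 3, such as Cnmd, Panx3 and Siglec15, rest on few reads.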

Other observations

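Immediate early genes, which cells switch on within minutes of a stimulus, rose in 7 of 18 members and fell in 1, with a median log2 difference of 0.44. Egr3, a zinc finger factor, was at 1.996, 1.63, 1.03 and 1.85 CPM in the day 3 libraries and 4.55, 6.23, 5.63 and 6.02 CPM in those of day 7, a rise of 1.79 ± 0.41 (SE, adjusted p = 0.00135). Fosb and Nr4a2, a Fos family factor and a nuclear receptor, rose by 2.08 and 2.08 on the log2 scale. Junb was the member that fell, with 226, 158, 99.5 and 117 CPM in the day 3 libraries and 70.7, 62.4, 93 and 93 CPM in those of day 7, a change of -0.91 ± 0.29 (SE, adjusted p = 0.0158). It did not pass without day 3 library 1, without day 7 library 2 or with scaling by library totals. Fos and Jun gave 0.26 and -0.20, uncalled. Both days were handled alike as far as the labels say, and the time from removal to freezing is not stated.

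Lymphocyte genes were at low levels in both groups. Of 8 tested T cell and NK cell genes 3 rose and none fell, with a median of 1.02. Cd3e, a chain of the T cell receptor complex, was at 0.418, 0.208, 0.726 and 0.754 CPM in the day 3 libraries and 1.57, 2.38, 2.03 and 1.44 CPM in those of day 7, a rise of 1.83 ± 0.42 (SE, adjusted p = 0.00165). A further 9 members, among them Cd3d, Cd8a and Foxp3, were under the filter. Of 12 B cell and plasma cell genes 1 rose, Sdc1 (1.47 ± 0.30 SE, adjusted p = 0.000557), a proteoglycan that fibroblasts and epithelia carry too, and 1 fell, Xbp1 (-0.31). Xbp1 did not pass without day 3 library 1 or 2 or without day 7 library 1. Nor did it pass with library totals, upper quartile scaling or the 8 libraries alone. Without day 3 library 2, 2 members rose. The B cell genes Ms4a1 and Cd79a gave 0.16 and 0.67 on the log2 scale, uncalled.

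Of 15 nerve sheath genes 1 rose and 2 fell, with a median of 0.10. Gap43, a growth-associated protein of regrowing axons and repair Schwann cells, was at 1.11, 1.45, 1.07 and 1.62 CPM in the day 3 libraries and 2.94, 2.54, 3.47 and 3.39 CPM in those of day 7, a rise of 1.22 ± 0.27 (SE, adjusted p = 0.00119). Mal, a myelin protein, fell by 1.37 ± 0.46 (SE, adjusted p = 0.0197), and 1 member of the list was lower without day 7 library 3 or 4. Of 6 mast cell genes Kit rose (0.78 ± 0.23 SE, adjusted p = 0.0101), not called without day 7 library 3, while the proteases Cpa3, Cma1 and Tpsb2 gave 0.01, 0.03 and -0.01. None of 8 erythroid genes passed in edgeR's test (0 at an unadjusted p below 0.05), 3 did without day 3 library 2 and 1 did by limma-voom. Of 3 tested epidermal genes Sbsn rose (0.98 ± 0.29 SE, adjusted p = 0.00973), not called without day 7 library 3, and 1 member of the list was lower without day 3 library 1.

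Cholesterol synthesis genes rose in 1 of 21 members (0 without day 3 library 3 or 4 or day 7 library 4) and fell in 3, with a median of -0.05. Fdft1 and Sc5d, later enzymes of the route, fell by 0.60 and 0.51 on the log2 scale.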
